A study of Bos taurus with 129 samples.

Results

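The comparison set 9 conceptuses of normal pregnancies (N) against 27 maternal libraries of N pregnancies, all collected at day 16. The maternal libraries were 9 of endometrium, 9 of corpus luteum and 9 of peripheral blood mononuclear cells (PBMC). These 36 libraries, 1 RNA-Seq library per sample, were taken by their labels, and the other 93 samples of the series stood outside the comparison. The question was which genes set the elongating conceptus apart from all 3 maternal tissues. According to the methods of the study, the conceptuses were flushed from the uterine horn of lactating multiparous Holstein cows after timed insemination with semen of a single sire. They were classed as N by their look, translucent and elongated, so the group was defined by form and not by a later outcome. No group carried a transgene or received a compound beyond the hormones that synchronized the cycle, and the ages of the cows are not given in the sources used here. No separation of parts is described, so the RNA of a conceptus can mix trophoblast with embryonic disc and endoderm. Whether each conceptus was recovered complete is not given. It is also not known which libraries share a cow, so nothing was paired, and p-values measure the spread between these samples only. The column of 1 endometrial library bears a name that the labels give to an N and to an embryo mortality sample, and it was used as N because its table holds N libraries.

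Before it attaches to the uterus, the conceptus of cattle grows from a sphere into a long filament, mostly by growth of its outer layer, the trophectoderm, over an inner layer of endoderm. The trophectoderm of ruminants secretes interferon tau (IFNT), a type I interferon that acts on the endometrium and keeps the corpus luteum from regressing. It also makes 2 large ruminant protein families, the pregnancy-associated glycoproteins (PAG), which are related to aspartic proteases, and the trophoblast Kunitz domain proteins (TKDP), which resemble protease inhibitors. The embryo proper arises from a small disc of epiblast cells that is a minor share of such a conceptus.

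The total count per library was 16642811 to 24482117 in conceptuses, 13542641 to 17647163 in endometrium, 15451144 to 20375833 in corpus luteum and 12343279 to 14731971 in PBMC. Conceptus libraries held 17255 to 21164 genes with a count, against 20717 to 23906 in the maternal libraries. Levels are given as scaled CPM, each count relative to the total of its library (CPM) after trimmed mean (TMM) scaling of all 36 libraries together, and the factor was 0.538 to 0.728 in conceptuses and 0.858 to 1.37 in maternal libraries. Scaled CPM of conceptuses therefore lie above their plain CPM. The marker lists that check the labels were highest in the tissue of the label in every library. The summed level of 8 conceptus markers was 83817 to 127238 CPM in conceptuses and at most 46.5 CPM in any maternal library. The 6 endometrial markers summed to 515 to 826 CPM in endometrium, the 6 luteal markers to 11907 to 30645 CPM in corpus luteum and the 6 PBMC markers to 3148 to 3516 CPM in PBMC. Conceptus S50 stood apart from the other 8, with 3576 CPM of interferon-stimulated genes against 248 to 678 CPM, and 2508 CPM of endometrial epithelium markers. S56 and S59 followed for both lists, so results that these libraries move are given with and without them. In bulk RNA, fewer cells of a type and less RNA per cell cannot be told apart, and this holds for every difference below.

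With tissues this unlike, most of the 19378 genes tested differed in each comparison. Against endometrium 6783 genes were higher (35%) and 9796 lower (50.6%) in conceptuses, with edgeR's quasi-likelihood test called at an adjusted p of 0.05. Against corpus luteum 6788 were higher (35%) and 9048 lower (46.7%), and against PBMC 8526 were higher (44%) and 7933 lower (40.9%). Over all genes tested, log2 fold changes had a median of -0.60, -0.37 and 0.11 in the 3 comparisons, which share the 9 conceptuses. Higher than all 3 tissues were 4996 genes (25.8%) and lower than all 3 were 5668 (29.2%). With library sizes alone in place of TMM factors these counts became 2686 and 8333. A gene was called set apart when it also differed by at least 8-fold from each tissue, with no overlap of the 9 conceptuses and the 27 maternal libraries. This held for 562 genes that were higher (2.9% of those tested) and 1059 that were lower (5.46%). The nearest maternal tissue of the 562 was endometrium for 231, corpus luteum for 191 and PBMC for 140. Just inside the limit lay DIAPH3, TRAM2 and NANS, with a smallest log2 fold change of 3.003, 3.004 and 3.004, and just outside it MASTL, LRRC8E and TOMM40, with 2.993, 2.995 and 2.997. The 562 genes took 22.1% to 27.8% of all counts in a conceptus library. They took 0.697% to 1.12% in endometrium, 0.683% to 0.796% in corpus luteum and 0.627% to 0.767% in PBMC. No count in any maternal library was found for 17 of them.

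Among genes with a symbol, the widest gaps to the nearest maternal tissue were those of TKDP1, PAG11, TKDP4, PAG2 and PAG12, which encode secreted proteins of the trophoblast. TKDP1, a trophoblast Kunitz domain protein, ranged from 40456 to 64928 CPM in conceptuses with a median of 45247 CPM, and its highest maternal value was 0.52 CPM in a corpus luteum. PAG11 ranged from 14301 to 42155 CPM (median 21796 CPM) and reached at most 0.297 CPM in a maternal library. PAG2 lay between 3607 and 8708 CPM (median 5967 CPM) and had no count in endometrium or PBMC. Measured against a floor of 3 counts summed over the 9 libraries of a tissue, it was at least 372072-fold higher than in endometrium and at least 291463-fold higher than in PBMC. TKDP4 (median 4561 CPM) also had no count in endometrium or PBMC, at least 381245-fold and 298649-fold higher by the same floor. PAG12 had no count in any of the 27 maternal libraries and ranged from 14.2 to 3290 CPM in conceptuses (median 960 CPM). By the same floor it was at least 47598-fold higher than in PBMC, 55568-fold than in corpus luteum and 60762-fold than in endometrium. PAG8 (263 to 930 CPM, median 399 CPM) had a log2 fold change of 12.81 against endometrium (standard error 0.39, adjusted p = 3.69e-25 from edgeR).

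The tested interferon tau genes with a symbol were also separated from every maternal library. IFNT3 ranged from 6514 to 16243 CPM in conceptuses, with a median of 12377 CPM, and from 0 to 0.375 CPM in endometrium. Its log2 fold change was 16.04 against endometrium (standard error 0.53, adjusted p = 2.84e-24) and 17.26 against corpus luteum (standard error 0.56, adjusted p = 2.61e-24). IFNT2 ranged from 2378 to 8758 CPM (median 5535 CPM) and IFN-tau-c1 from 157 to 539 CPM (median 386 CPM). All 9 conceptuses lay above all maternal libraries for each of these genes. SSLP1, a secreted Ly-6 protein named after the seminal vesicle and outside these families, ranged from 7157 to 13654 CPM in conceptuses. It was detected in all 9 endometria, at 1.66 to 44.2 CPM, with a log2 fold change of 9.95 (standard error 0.57, adjusted p = 7.15e-18), or 10.65 without endometrium S72. Of the list of interferon tau genes 3 of 4 in the files passed the count filter, of the PAG list 4 of 19 and of TKDP and SSLP1 3 of 4. All of these were set apart, where all genes had 2.9%, but most of them passed the filter through the conceptuses alone, so nothing is read from that count. The rows that the files describe as TKDP together took 2.58% to 5.05% of the counts of a conceptus (median 3.43%), the PAG rows 1.504% to 2.87% (median 1.90%) and the interferon tau rows 1.21% to 1.99% (median 1.41%). Only 7 of the 58 PAG rows passed the count filter, of which 6 were set apart. In all 3 families the copies are alike and can share reads, so the split between copies is uncertain. Of the 10 genes listed from the prolactin and placental lactogen family none passed the filter, and their summed level was at most 0.308 CPM in a conceptus.

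**Figure D1:**
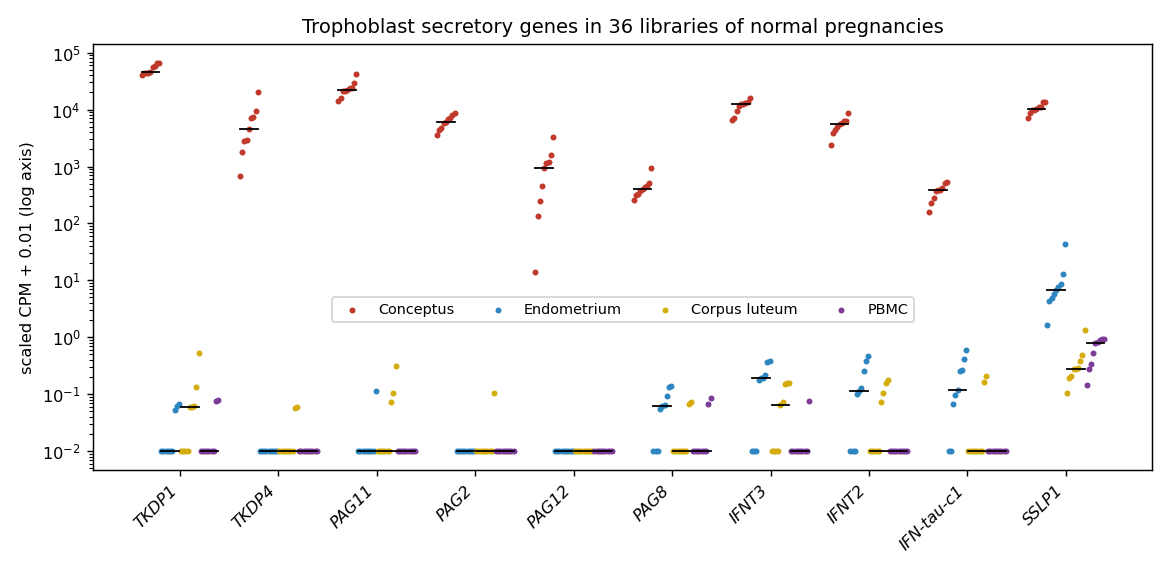
Each point is the scaled CPM of 1 library plus 0.01 on a log axis, for 10 genes of trophoblast secreted proteins in the 9 libraries of each tissue, with the median as a bar. For every gene all 9 conceptuses lie above all 27 maternal libraries, and the nearest maternal value is that of SSLP1 in 1 endometrium at 44.2 CPM.

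Rows without a gene symbol were among the most abundant, and they were picked out after their values were seen. LOC618696, which the files leave uncharacterized, ranged from 21860 to 70284 CPM in conceptuses (median 42286 CPM) and had 16 counts in all over the maternal libraries. LOC112446741, also uncharacterized, ranged from 17122 to 29797 CPM and LOC112446828, described as like a flocculation protein, from 2353 to 20508 CPM, each with at most 0.271 CPM in a maternal library. LOC112445660, described as interferon tau-1, ranged from 5083 to 8253 CPM and was at most 1.93 CPM in endometrium. Of the 562 genes, 91 carry only such a LOC number.

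Trophoblast transcripts were nearly absent from the maternal libraries. The counts of TKDP1, TKDP4, PAG11, PAG2, IFNT3, IFNT2 and SSLP1 summed to between 1008807 and 1952098 in a conceptus. They summed to 30 to 729 in endometrium (median 138), 5 to 31 in corpus luteum and 3 to 16 in PBMC. Without SSLP1 the sums were 0 to 17, 0 to 21 and 0 to 2, with medians of 7, 3 and 0. SSLP1 alone gave 722 of the 729 counts of the endometrial library with the most, S72. The source of these few reads was not tested.

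Several genes outside the secreted families also had hardly a maternal count. FETUB, fetuin B, a liver-type secreted protease inhibitor, ranged from 92.5 to 1734 CPM in conceptuses (median 722 CPM) and gave 1 count in all maternal libraries. IGF2BP1, an RNA-binding protein of fetal tissues, ranged from 204 to 415 CPM and also gave 1 maternal count. AKR1D1, a steroid 5-beta reductase, ranged from 47.7 to 163 CPM and FOXI3, a forkhead transcription factor of ectoderm, from 32.3 to 218 CPM. Both had no maternal count, which made them at least 4619-fold and 4301-fold higher than in PBMC by the floor of 3 counts. CALML5, a calmodulin-like protein of epithelia, lay between 199 and 956 CPM, with at most 0.112 CPM in endometrium and no count in the other maternal tissues. IRX4, a homeobox factor, had 28.3 to 79.9 CPM in conceptuses and no maternal count. Among abundant genes with a broader maternal expression, PRDX1, a peroxidase that removes hydrogen peroxide, averaged 6258 ± 2438 CPM (SD, n = 9) in conceptuses, with group means of 102.4 to 198 CPM in the maternal tissues. ACTG1, a cytoskeletal actin, averaged 13156 ± 3316 CPM and was set apart by the smallest margin of these, with log2 fold changes of 3.13, 3.08 and 3.26 against endometrium, corpus luteum and PBMC. FURIN, a protease that cleaves proproteins and was singled out after its value was seen, averaged 5120 ± 1395 CPM, with a log2 fold change of 4.88 against corpus luteum, the nearest tissue.

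Most of the listed transcription factors of the trophectoderm were higher in conceptuses than in each maternal tissue. Of 20 listed factors, 17 were higher than in all 3 tissues, beside 25.8% of all genes, none was lower, and 10 were set apart. With library sizes alone 14 were higher and 1 was lower. The median log2 fold change of the list was 4.39, 4.56 and 7.91 against endometrium, corpus luteum and PBMC, where all genes had -0.60, -0.37 and 0.11. CDX2, HAND1 and MSX2 passed the count filter through the conceptuses, so nothing is read from the contrast of this list with all genes. CDX2, a homeobox factor that maintains trophectoderm in the mouse, ranged from 25 to 51.7 CPM in conceptuses (median 41.3 CPM), and had no count in endometrium or PBMC. Its highest maternal value was 0.988 CPM, in a corpus luteum. GATA3, a zinc finger factor of trophoblast and also of T cells, ranged from 338 to 679 CPM in conceptuses, and from 11 to 31.8 CPM in PBMC, the nearest tissue (log2 fold change 4.52, standard error 0.24, adjusted p = 8.15e-19). HAND1, a basic helix-loop-helix factor needed for trophoblast giant cells in the mouse, was spread widely, from 74.4 CPM in S60 to 687 CPM in S54, and was at most 6.95 CPM in a maternal library. MSX2 (87.7 to 165 CPM) and TFAP2A (134 to 226 CPM) were narrower, and their log2 fold changes against endometrium were 7.37 and 7.74. GATA2 and GRHL1 were higher than all 3 tissues but were not set apart. GATA2 had 224 to 450 CPM in conceptuses and 66.6 to 107.6 CPM in endometrium, and GRHL1 had 207 to 406 CPM in conceptuses and 28.3 to 73.9 CPM in corpus luteum. EOMES, KLF5 and GRHL2 did not pass in all 3 comparisons.

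Regulators of pluripotent cells were present, although the disc markers in the strict sense gave few reads. LIN28A, an RNA-binding protein that blocks let-7 processing, ranged from 16.4 to 73.4 CPM in conceptuses (median 46.2 CPM), with no count in endometrium or corpus luteum and 3 counts in PBMC. DPPA4, ZFP42 and SALL4, nuclear factors known from pluripotent stem cells, ranged from 11.5 to 24.8 CPM, 18.3 to 61.4 CPM and 17.2 to 69.8 CPM. DPPA4 and ZFP42 had no maternal count. DNMT3B, a de novo DNA methyltransferase, ranged from 111.2 to 201 CPM, with a log2 fold change of 2.04 against PBMC (standard error 0.16, adjusted p = 5.05e-14). Of the 17 epiblast genes in the files 6 passed the count filter, and 5 of these, without TDGF1, were higher than in all 3 tissues. LIN28A, DPPA4, ZFP42 and SALL4 passed it through the conceptuses, so nothing is read from that count beside the 25.8% of all genes. The members that failed the filter include POU5F1, NANOG and SOX2, the core factors of the epiblast, whose values were looked up for that reason. POU5F1 gave 241 counts in S56, 142 in S57, 95 in S62, 65 in S52, 53 in S54, 18 in S50, 14 in S59, 8 in S63 and 2 in S60, and none in 27 maternal libraries. NANOG was ordered nearly alike, with 28 counts in S56, 23 each in S57 and S62, at most 6 in S52, S54 and S50 and none in S59, S60 and S63. SOX2 gave at most 7 counts in a conceptus and was also detected in endometrium, with 23 counts over the group.

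Genes of the endoderm that lines the trophectoderm were less uniform. Of 20 tested genes of hypoblast and endoderm (23 listed) 9 were higher than in all 3 tissues and 2 were lower, beside 25.8% and 29.2% of all genes, and 3 were set apart. APOA2 and FGB, both set apart, passed the count filter through the conceptuses, so nothing is read from the counts of higher and set-apart genes. With library sizes alone 5 were higher. LRP2, megalin, an endocytic receptor of absorptive epithelia, ranged from 1394 to 5001 CPM in conceptuses (median 3341 CPM). It was higher than in endometrium by 3.04 on the log2 scale (standard error 0.70, adjusted p = 0.000145), although 1 endometrium reached 1431 CPM, above the lowest conceptus. DAB2, an adaptor of endocytosis, ranged from 616 to 1007 CPM and was nearest to corpus luteum, with a log2 fold change of 2.25. APOA2, an apolipoprotein of high-density lipoprotein, was low, at 0.855 to 12 CPM, and had 3 maternal counts in all, in PBMC. FGB, a fibrinogen chain, ranged from 1.31 to 31.9 CPM and was at most 0.98 CPM in a maternal library. RBP4, the carrier of retinol, ranged from 124.9 to 737 CPM in conceptuses and from 36 to 344 CPM in endometrium, so these groups overlapped (log2 fold change 1.17, standard error 0.29, adjusted p = 0.000400), a call lost with library sizes alone (0.08) and in the test beyond 2-fold. APOA1, the main protein of high-density lipoprotein, was 6.88 higher than in endometrium on the log2 scale, but averaged 2503 ± 1094 CPM in conceptuses and 2335 ± 816 CPM in corpus luteum (log2 fold change 0.10, standard error 0.33, adjusted p = 0.783). Of 12 genes of gastrulation 5 passed the filter. Among them MIXL1, a homeobox factor of primitive streak, was set apart at 1.37 to 4.17 CPM, and MESP1, of early mesoderm, was higher than in all 3 tissues at 1.71 to 7.69 CPM.

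The listed proliferation genes were higher in conceptuses than in each maternal tissue, PBMC included, though not all were set apart. All 20 listed cell cycle genes were higher than in all 3 tissues, beside 25.8% of all genes, and 11 were set apart, with median log2 fold changes of 4.51, 3.98 and 3.22 against endometrium, corpus luteum and PBMC. RLE factors, library sizes alone, DESeq2 and a test beyond 2-fold each gave 19 of 20, and the set-apart count fell to 2 with library sizes alone. CDC20, an activator of the anaphase-promoting complex, ranged from 143 to 360 CPM in conceptuses and from 3.18 to 12.1 CPM in PBMC, the nearest tissue (log2 fold change 5.26, standard error 0.29, adjusted p = 1.77e-18). AURKA, a mitotic spindle kinase, ranged from 113.4 to 298 CPM, with a log2 fold change of 5.36 against PBMC. RRM2, a subunit of ribonucleotide reductase, was even between conceptuses, at 332 to 467 CPM, against 19.6 to 60.2 CPM in PBMC. AURKB, a kinase of chromosome segregation, lay between 60.9 and 218 CPM and MCM7, part of the replicative helicase, between 251 and 478 CPM. MKI67, a marker of dividing cells, ranged from 188 to 359 CPM in conceptuses and from 83.8 to 259 CPM in PBMC. It was called higher than in PBMC (log2 fold change 0.75, standard error 0.27, adjusted p = 0.0107), a call lost with RLE factors, upper-quartile factors and DESeq2 and a direction that turned to -0.18 with library sizes alone.

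Keratins and junction proteins of epithelia were higher as well. Of 20 listed genes 16 were higher than in all 3 tissues, beside 25.8% of all genes, none was lower and 9 were set apart, and with library sizes alone these counts were 13, 0 and 6. CLDN6 among the set-apart genes passed the count filter through the conceptuses, so nothing is read from the contrast of this list with all genes. KRT8 and KRT18, the keratin pair of simple epithelia, ranged from 16804 to 32684 CPM and from 11448 to 38433 CPM in conceptuses. Their levels in endometrium were 57.2 to 162 CPM and 24.3 to 82.6 CPM, with log2 fold changes of 8.23 (standard error 0.32, adjusted p = 2.32e-22) and 8.76 (standard error 0.54, adjusted p = 7.20e-15). KRT19 ranged from 3302 to 13490 CPM, with S56 highest. CLDN6, a tight junction protein of embryonic epithelia, ranged from 1190 to 2730 CPM in conceptuses (median 2092 CPM), at most 2.69 CPM in endometrium and 0.151 CPM in corpus luteum, and had no count in PBMC. VIM, the intermediate filament of mesenchymal cells, was the reverse, at 0.0689 to 6.98 CPM in conceptuses and 290 CPM or more in every maternal library. Its log2 fold change was -7.02 against endometrium (standard error 0.46, adjusted p = 2.47e-16), and of 11 stromal markers it alone was lower than in all 3 tissues, as 8 of the others were higher than in PBMC.

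Genes of prostaglandin synthesis and response differed by member. Of 16 listed genes, 4 were higher than in all 3 tissues and 6 lower, shares near the 25.8% and 29.2% of all genes. PTGS2, the inducible cyclooxygenase, ranged from 1879 to 9415 CPM in conceptuses (median 5569 CPM) and from 17.1 to 189 CPM in endometrium (log2 fold change 5.99, standard error 0.54, adjusted p = 1.68e-12). AKR1B1, which can act as a prostaglandin F synthase in bovine endometrium, ranged from 2614 to 9738 CPM in conceptuses, and from 49.8 to 280 CPM in endometrium (log2 fold change 5.48, standard error 0.30, adjusted p = 2.16e-18). PTGES, the prostaglandin E synthase, had 23 to 128.5 CPM in conceptuses and at most 5.89 CPM in a maternal library. PTGES3, which is also a co-chaperone, had a log2 fold change of 1.42 against endometrium. The lower ones were the constitutive cyclooxygenase PTGS1, HPGD and the receptors PTGER1, PTGER2, PTGER4 and PTGIR.

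Nutrient transporters differed by member. Of 21 tested (24 listed), 9 were higher than in all 3 tissues and 6 were lower, beside 25.8% and 29.2% of all genes. SLC2A3, a glucose transporter of high affinity, ranged from 3853 to 5900 CPM in conceptuses (median 4394 CPM). It had 14.1 to 38 CPM in endometrium, and PBMC, with 225 to 1009 CPM, was nearest (log2 fold change 3.69, standard error 0.24, adjusted p = 1.40e-16). SLC2A1, the more widespread glucose transporter, ranged from 464 to 965 CPM and had a log2 fold change of 1.86 against endometrium. SLC16A1, a carrier of lactate, ranged from 294 to 601 CPM (2.81 against corpus luteum) and SLC7A8, an exchanger of neutral amino acids, from 205 to 453 CPM (3.98 against corpus luteum). SLC38A1, a sodium-coupled glutamine transporter, was set apart downward, at 0.398 to 5.52 CPM in conceptuses and at least 43.5 CPM in every maternal library.

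Lipid genes were mostly higher than in endometrium and PBMC but lower than in corpus luteum. Of 25 genes of cholesterol and fatty acid synthesis, 21 were higher than in endometrium and 23 higher than in PBMC, while 4 were higher and 16 lower than in corpus luteum. Of all genes 35% were higher than in endometrium, 44% higher than in PBMC and 46.7% lower than in corpus luteum. The median log2 fold changes were 2.17, 1.73 and -1.16. SCD, the stearoyl-CoA desaturase, averaged 3617 ± 1428 CPM in conceptuses, 3307 ± 715 CPM in corpus luteum (log2 fold change 0.13, standard error 0.20, adjusted p = 0.545) and 47.8 ± 16.4 CPM in endometrium (log2 fold change 6.24). HMGCS1, an enzyme early in cholesterol synthesis, had a log2 fold change of -3.22 against corpus luteum. Higher than in all 3 tissues were FABP5, an intracellular fatty acid carrier (203 to 795 CPM, log2 fold change 3.99 against corpus luteum), PPARG, a nuclear receptor for fatty acids (32.3 to 83.5 CPM, 3.71 against corpus luteum), and ELOVL6, an elongase (443 to 779 CPM, 2.71 against corpus luteum). FADS1 and FADS2, desaturases of polyunsaturated fatty acids that were added after their values were seen, averaged 2667 ± 1252 CPM and 2741 ± 773 CPM, and both were set apart. Among 14 tested steroid genes (16 listed) 4 were higher than in all 3 tissues, near the 25.8% of all genes, and none was lower, while with library sizes alone 2 were higher and 2 lower. HSD17B1, which turns estrone into estradiol, ranged from 100.5 to 991 CPM in conceptuses and was at most 3.97 CPM in a maternal library. CYP19A1, aromatase, ranged from 7.72 to 103.7 CPM, and from 9.01 to 24.9 CPM in corpus luteum (log2 fold change 1.83, standard error 0.35, adjusted p = 1.13e-05). CYP11A1, the side-chain cleavage enzyme, had 36.4 to 322 CPM in conceptuses, with log2 fold changes of -4.96 against corpus luteum and 8.19 against endometrium. HSD3B1, the next enzyme of progesterone synthesis, had a log2 fold change of -6.93 against corpus luteum, at 42.9 to 129.4 CPM.

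Among developmental ligands, 7 of 23 tested (26 listed) were higher than in all 3 tissues, near the 25.8% of all genes, and 1, HGF, was lower. Set apart upward were 5, where all genes had 2.9%. WNT7A among them passed the count filter through the conceptuses, so nothing is read from that count. WNT7B (31.5 to 54.4 CPM), WNT6 (24.7 to 61.4 CPM) and WNT7A (4.31 to 15.1 CPM), secreted signals of epithelia, had no count in PBMC and reached at most 1.05, 2.57 and 0.211 CPM in a maternal library. BMP7, a bone morphogenetic protein, ranged from 22.5 to 49 CPM (log2 fold change 5.03 against endometrium, 5.64 without endometrium S81) and BMP2 from 45 to 80.9 CPM (2.39 against endometrium). Of 28 HOX genes tested (35 listed) 2 were higher than in all 3 tissues, below the 25.8% of all genes, and none was lower. HOXB4 had 8.41 to 26.6 CPM in conceptuses and 4.10 to 16.6 CPM in endometrium (log2 fold change 1.03, standard error 0.36, adjusted p = 0.00980), a call lost with RLE factors, which turned to -0.08 with library sizes alone. HOXA10 and HOXA11, which pattern the uterus, gave 1 and 2 counts over the 9 conceptuses, against 51.9 and 63.1 CPM or more in every endometrium.

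Of 17 imprinted genes tested (20 listed) 2 were higher than in all 3 tissues and 1 was lower, both below the 25.8% and 29.2% of all genes. PHLDA2 among the higher ones passed the count filter mainly through the conceptuses, so nothing is read from the count of higher genes. PHLDA2, a growth-restraining gene of the placenta in the mouse, ranged from 0.879 to 6.12 CPM in conceptuses and was at most 0.735 CPM in a maternal library. PLAGL1, a zinc finger factor, was set apart downward, with 0 to 1.71 CPM in conceptuses and at least 14 CPM in every maternal library. Among 9 tested genes of DNA methylation, UHRF1, which guides maintenance methylation, and TET1, which oxidizes methylcytosine, were among 5 that were higher than in all 3 tissues, beside 25.8% of all genes. TET2 had the opposite direction, with log2 fold changes of -3.02, -2.77 and -4.31, whereas those of TET1 were 2.70, 2.76 and 3.19 against endometrium, corpus luteum and PBMC. RUM1, syncytin-Rum1, an envelope gene of retroviral origin, ranged from 22.2 to 96.4 CPM in conceptuses and was at most 9.76 CPM in a maternal library. PNMA2, of a retrotransposon-derived family, gave 2 counts over the 9 conceptuses and 81 counts or more in each maternal group.

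**Figure D2:**
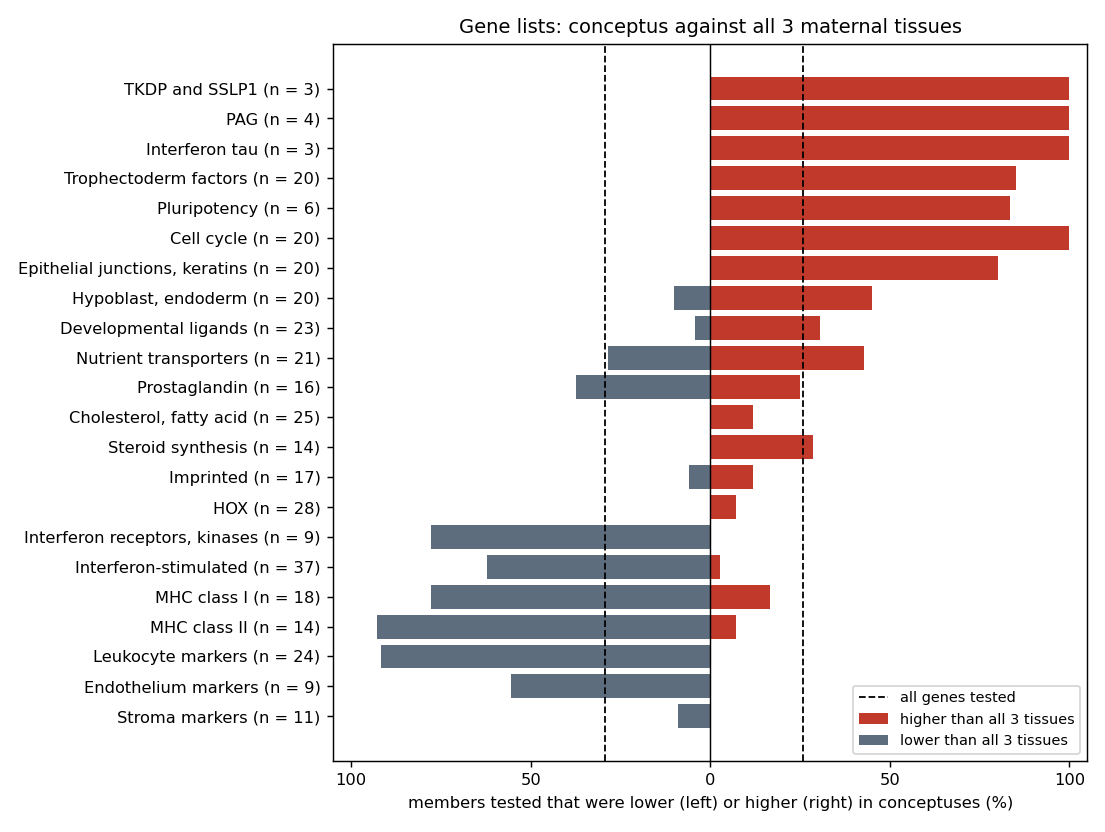
Bars give the percentage of the tested members of each gene list that were higher (right) or lower (left) in conceptuses than in all 3 maternal tissues, and the dashed lines mark 25.8% and 29.2%, the shares of all genes tested. All 20 cell cycle genes and 17 of 20 trophectoderm factors lie to the right, while 22 of 24 leukocyte markers and 13 of 14 MHC class II genes lie to the left. Some lists hold members that passed the count filter only or mainly through the conceptuses. Among them are trophoblast families, trophectoderm factors, pluripotency, developmental ligands, hypoblast and endoderm, epithelial junctions and imprinted genes.

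The genes set apart downward by the widest margin include several known from blood cells and vessels. They were picked at a mean of 5 CPM or more in each maternal tissue, PBMC included, which limits the choice to genes these tissues share. Among the 1059, 64 had no count in any conceptus. SELP, P-selectin of endothelium and platelets, had no conceptus count and 6.18 to 19.5 CPM in endometrium, which made it at least 438-fold lower in conceptuses, and at least 238-fold lower than in PBMC. RUNX1T1, a transcriptional corepressor, gave 9 counts over the 9 conceptuses, against at least 18.3 CPM in every maternal library (log2 fold change -9.27 against PBMC, standard error 0.46, adjusted p = 1.06e-19). EBF1, a factor of B cells and stroma, gave 3 counts, against at least 14.6 CPM. MEF2C, a factor of muscle, endothelium and lymphocytes, gave 7 counts, against 23.9 CPM or more. FGL2, a fibrinogen-like protein of macrophages, CLEC2B and CLEC1A, receptors of the C-type lectin family, BMX, a kinase of endothelium, CHST7, a sulfotransferase, and SLC8A1, a sodium and calcium exchanger, were each at 0.329 CPM or less in every conceptus. Of 24 leukocyte markers 22 were lower than in all 3 tissues, beside 29.2% of all genes, and their summed level was 11.3 to 81.4 CPM in conceptuses, 82.5 to 406 CPM in endometrium and 7107 to 9316 CPM in PBMC. Single defining markers were at or near 0. MS4A1, of B cells, was at most 0.197 CPM in a conceptus, CSF1R, of macrophages, at most 1.64 CPM, and CDH5, of endothelium, at most 0.197 CPM. PTPRC, the common leukocyte antigen, was at 8.81 CPM in S50 and at most 2.97 CPM in the other conceptuses, with a log2 fold change of -4.65 against endometrium (standard error 0.57, adjusted p = 3.05e-09), -6.06 without S50 and -0.86 with DESeq2, where the call was lost. The stromal markers summed to 23.7 to 97.3 CPM in conceptuses and 7155 to 20475 CPM in endometrium, and COL3A1, a fibrillar collagen, was at most 1.54 CPM in a conceptus and at least 1428 CPM in an endometrium. LHCGR, the luteal receptor of luteinizing hormone, was at most 0.489 CPM in a conceptus, and STAR, the cholesterol carrier of steroid cells, at most 20.9 CPM, against 7275 CPM or more in corpus luteum. Endometrial epithelium markers summed to 124.7 to 212 CPM in 6 conceptuses, 592 CPM in S59, 1008 CPM in S56 and 2508 CPM in S50, where endometrium had 1916 to 4451 CPM. Their part in the values of these 3 libraries was not tested.

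The receptors and kinases through which interferons act were mostly lower in the conceptus, the source of interferon tau, than in each maternal tissue. Of 9 listed genes 7 were lower than in all 3 tissues and 2 were set apart, beside 29.2% and 5.46% of all genes. The 9 together summed to 160 to 258 CPM in conceptuses, 498 to 645 CPM in endometrium, 689 to 871 CPM in corpus luteum and 1252 to 2382 CPM in PBMC. IFNAR2, a chain of the type I receptor, was at 8.09 CPM in S50 and at most 1.44 CPM in the other 8 conceptuses, against 25.6 to 49.6 CPM in endometrium (log2 fold change -4.99, standard error 0.58, adjusted p = 7.67e-10), and its log2 fold change was -7.22 without S50. IFNAR1, its partner chain, ranged from 18.8 to 46.5 CPM and overlapped with endometrium, which had 12.9 to 110.2 CPM (log2 fold change -0.96, standard error 0.24, adjusted p = 0.000469). IFNGR2, of the type II receptor, ranged from 2.84 to 12.7 CPM, against at least 52 CPM in every maternal library, and JAK1, a kinase of both pathways, had a log2 fold change of -1.43 against endometrium. INSR, the insulin receptor, was likewise set apart downward, at 0.398 to 9.73 CPM in conceptuses with S50 highest and at least 21.6 CPM in maternal libraries.

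Interferon-stimulated genes were also low in most conceptuses, with S50 as the exception. Their summed level was 248 to 678 CPM in 8 conceptuses and 3576 CPM in S50. It was 3102 to 24097 CPM in endometrium (median 20276 CPM), 1166 to 7799 CPM in corpus luteum (median 1835 CPM) and 2458 to 13030 CPM in PBMC (median 3909 CPM). Of 37 genes 23 were lower than in all 3 tissues, 1 was higher and 2 were set apart, beside 29.2%, 25.8% and 5.46% of all genes. Without S50, 33 were lower and 17 were set apart, and without S50, S56 and S59 together, 34 and 25. PARP14 was at 46.9 CPM in S50 and at most 4.10 CPM in the others, and SAMD9, an antiviral effector, at 30.8 CPM in S50 and at most 0.205 CPM in the others. IRF1, an interferon regulatory factor, was at 32.8 CPM in S50 with 6.05 CPM as the next value, and EIF2AK2, the kinase PKR, ranged from 12 to 152 CPM. TRIM25, a ubiquitin ligase, was the gene in the opposite direction, at 42.4 to 159 CPM in conceptuses and 17.1 to 101.3 CPM in endometrium (log2 fold change 0.67, standard error 0.26, adjusted p = 0.0199), a call lost with RLE factors and DESeq2, and a direction that turned to -0.44 with library sizes alone. Without S59 its value was 0.51 (adjusted p = 0.0713 from edgeR) and without S54 0.54 (adjusted p = 0.0602 from edgeR).

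Genes of antigen presentation were mostly lower, too. Of 18 genes of class I presentation, 14 were lower than in all 3 tissues and 3 higher, and of 14 tested genes of class II, 13 were lower and 1 higher, beside 29.2% and 25.8% of all genes. B2M, the shared light chain of class I, ranged from 72.6 to 630 CPM in conceptuses and from 391 to 2813 CPM in endometrium (log2 fold change -2.65, standard error 0.31, adjusted p = 9.45e-10). BOLA-NC1, a nonclassical class I gene, was at 70.3 CPM in S50 and at most 22.3 CPM in the others, against 147 CPM or more in every maternal library. The 3 higher class I genes were CALR, CANX and PDIA3, which are chaperones of the endoplasmic reticulum and serve many proteins. CALR averaged 3669 ± 645 CPM in conceptuses and 614 ± 93.8 CPM in corpus luteum (log2 fold change 2.58), and PDIA3 had a log2 fold change of 1.86 there. BOLA-DRA, a class II chain, was at 66.4 CPM in S50 and at most 10.5 CPM in the others, against 76.7 to 483 CPM in endometrium, and CD74, the invariant chain, was at 318 CPM in S50 and at most 40.2 CPM in the others. Set apart downward were 4 of the class I and 7 of the class II genes, and 8 and 12 without S50. IFI30, a lysosomal thiol reductase that is counted with class II, was higher, at 89.1 to 387 CPM in conceptuses and 40.6 to 102.8 CPM in PBMC (log2 fold change 1.16, standard error 0.29, adjusted p = 0.000436), a call lost with library sizes alone. Reads of the BOLA genes can be shared between copies, so single members are uncertain.

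**Figure D3:**
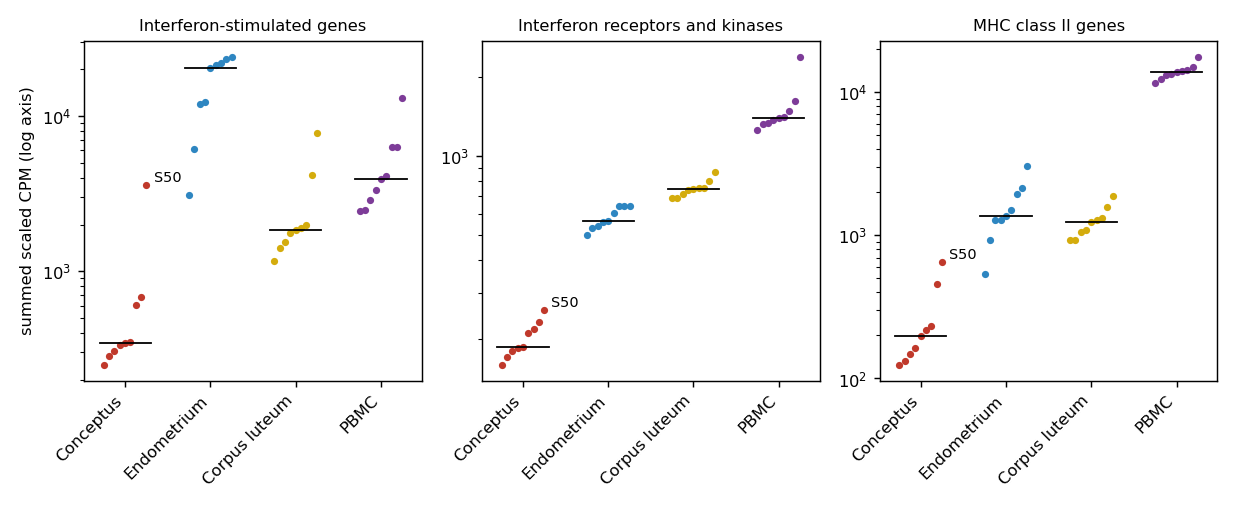
Each point is the summed scaled CPM of a gene list in 1 library on a log axis, for 37 interferon-stimulated genes, 9 interferon receptor and kinase genes and the MHC class II genes, with the median of 9 libraries as a bar. Conceptus S50, labeled, has 3576 CPM of interferon-stimulated genes where the other 8 conceptuses have 248 to 678 CPM, and all conceptuses lie below all maternal libraries for the receptors.

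The 9 conceptuses were not alike. Over 7628 genes at 20 CPM or more, the mean correlation of a library's log2 CPM with those of the other 8, a description across genes, was lowest in S56 (r = 0.856) and highest in S57 (r = 0.922). The median SD of log2 CPM between conceptuses was 0.38 over these genes and 0.45 over the 421 set apart upward among them. XIST, the RNA that coats an inactive X chromosome, was at 404 CPM in S52, 254 in S50, 119.5 in S57, 71.1 in S54 and 41.9 in S59. It was at 2.87 CPM in S56, 2.12 in S62, 0.551 in S63 and 0.391 in S60, while every maternal library had 319 to 2117 CPM. The sex of the conceptuses is not given in the labels. RPL12, a ribosomal protein, was at 1519 CPM in S56, 880 in S60 and 840 in S57 and at 0.592 to 2.28 CPM in the other 6. The maternal tissues also held both kinds of library, 3 of 9 in each tissue at 120 CPM or more and the rest at 12.5 CPM or less.

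Trophoblast genes varied too. TKDP4 was highest in S54, at 19996 CPM, and lowest in S60, at 693 CPM, and PAG12 had the same extremes, 3290 CPM and 14.2 CPM. HAND1 also was highest in S54 and lowest in S60. TKDP1, by contrast, stayed within 40456 to 64928 CPM. The 10 most variable genes with a symbol include, beside XIST and RPL12, genes of mucosal secretion and acute phase. LTF, lactoferrin, was at 1399 CPM in S50, 589 in S56, 49.8 in S59 and at most 22.3 CPM in the other 6. PIGR, the receptor that carries polymeric immunoglobulin, was at 407, 92 and 18.9 CPM in S50, S56 and S59, GP2, a glycoprotein of secretory granules, at 581, 74.2 and 29.1 CPM, and IFI6, an interferon-stimulated gene, at 583, 127.8 and 66.6 CPM. These are the conceptuses with the most RNA of endometrial epithelium markers, a list that holds LTF and PIGR.

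**Figure D4:**
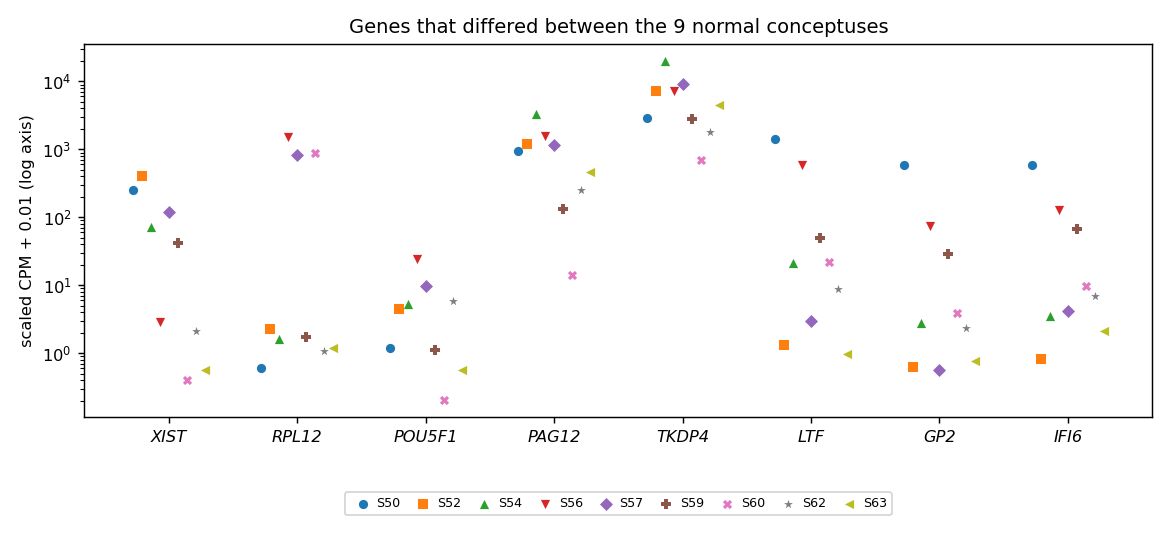
Each symbol is 1 of the 9 conceptuses, with scaled CPM plus 0.01 on a log axis, for 8 genes that differed between them. XIST and RPL12 fall into separated levels, TKDP4 and PAG12 are highest in S54 and lowest in S60, and LTF, GP2 and IFI6 are highest in S50, followed by S56 and S59.

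Another experiment of the series (E1), with paired-end reads and a separate count table, held 8 N conceptuses and 8 N endometria, with 6800123 to 14581706 and 8217465 to 12388469 counts per library. There 5135 of 13079 genes were higher (39.3%) and 6243 lower (47.7%) in conceptuses. The 2 experiments used different annotations, and only 72.1% of the 562 genes set apart upward and 57.5% of the 1059 set apart downward had a row of the same symbol. Of 372 upward genes that could be tested, 370 were higher in E1, with a median log2 fold change of 5.09, against 5.33 for the same genes in the main comparison. Of 519 downward genes 515 were lower, with a median of -6.46 against -5.09. KRT18 averaged 27670 CPM in the conceptuses of E1 and KRT8 18844 CPM, with log2 fold changes of 9.51 and 8.60. PAG2 ranged from 3748 to 9360 CPM and TKDP4 from 879 to 6077 CPM there, with no count in endometrium. CDX2 had 9.31 to 12.9 CPM and no endometrial count, and HAND1 had 208 to 727 CPM. For SSLP1 the log2 fold change was 9.95 in both experiments, while its level in the conceptuses of E1 was 292 to 740 CPM. VIM was lower in E1 too, with a log2 fold change of -8.59. CTSL, a lysosomal protease, gave a log2 fold change of 8.52 in the main comparison and of -0.39 in E1 (standard error 0.21, adjusted p = 0.0852), and CLSTN3 3.51 and 0.97 (standard error 0.46, adjusted p = 0.0594). Of the other 4 downward genes, BPI, DENND1C and RORA did not pass the test in E1. MPEG1, a pore-forming protein of macrophages, was called higher there, with -5.14 in the main comparison and 6.30 in E1, and the difference itself was not tested.

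**Figure D5:**
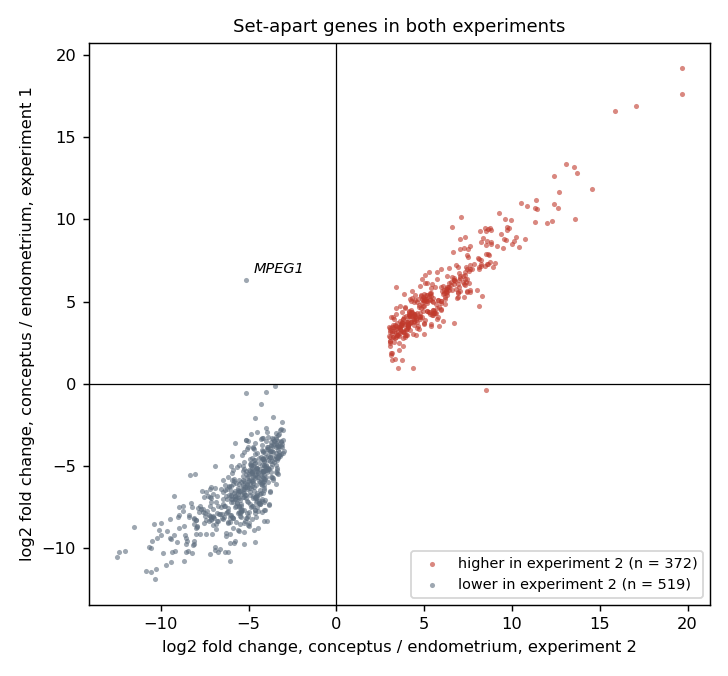
Each point is a gene set apart in the first comparison (experiment 2), with its log2 fold change of conceptus against endometrium there on the horizontal axis and in experiment 1 on the vertical axis. Of the 372 upward genes 370 were called higher in experiment 1, of the 519 downward genes 515 were called lower, and MPEG1 lies in the opposite quadrant.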

How the data were processed

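RNA-Seq libraries were made per the labels from TRIzol-extracted RNA with a stranded mRNA kit. The authors deposited whole-number read counts per gene, not normalized, on the UCD1.2 assembly for the main comparison and on UMD3.1 for E1. The counting strand and the counter are not given in the sources used here. Columns of 2 samples without a group were not used. Of 35186 rows, 28 repeats of a name with identical counts were dropped. No replicate pair was closer than a chi-square of 15.962 per degree of freedom, so every library was counted once.

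Counts of 36 libraries entered 1 fit (R 4.3.3, edgeR 4.0.16, filterByExpr with a minimum count of 10, TMM, quasi-likelihood test, Benjamini-Hochberg adjustment over 19378 genes). Standard errors are the log2 fold change divided by the square root of F. E1 was fitted by itself. Tested on simulated data for the 3 comparisons (18854 genes), the fit called 48 of 98 genes changed 2-fold in all 3, 94 of 100 changed 8-fold and 0 of 18656 unchanged. The set-apart rule, whose limit is 8-fold itself, was met by 0, 24 and 0 of these. Most genes in that run were unchanged, whereas most measured genes differed between the tissues. Scaling under such wide differences was not tested in that run. Alternatives were other scalings and filters, DESeq2 1.42.0, a test beyond 2-fold, separate fits, other fold limits and leaving out each library. Leaving out S50, S56 and S59 together was chosen after seeing the data.

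Named genes carry a symbol. They are the 15 set-apart higher genes with the widest gap (5 CPM or more) and the 10 most abundant. Added were the 10 set-apart lower genes with the widest gap (5 CPM or more in each maternal tissue). Up to 4 members of each of 34 lists were taken by fold and by level, and all interferon tau genes. The 10 most variable between conceptuses (20 CPM or more) and the label markers complete them. Not all are printed. The others, with LOC numbers, FADS1, FADS2, FURIN, MPEG1, CTSL, CLSTN3, POU5F1, NANOG and SOX2, were chosen after their values were seen. Lists, members and rules were chosen with earlier results of these data known. Figures were drawn with matplotlib 3.10.9. Intervals and floors cover counting error only.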

Additional observations from a re-analysis of the deposited data

Results flagged for a closer look

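Within each group of 9 libraries, the highest or lowest value was compared with its neighbor, and 40 of 166 groups had an end value far from the rest (Dixon's test at the 95% level). A rate of 1 in 20 by chance holds for normal values only, and these were untransformed CPM, some of a few counts. LTF, GP2, PIGR and IFI6 were included because they varied most between conceptuses, and members of a list are not independent. The 40 are therefore a list to look at and are not set against a number due to chance. S50 was the library in 22 of the 40.

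S50 stood above the other conceptuses for the sum of interferon-stimulated genes (3576 CPM) and of endometrial epithelium markers (2508 CPM). Among interferon genes it was high for EIF2AK2 (151.6 CPM), PARP14 (46.94 CPM), IRF1 (32.8 CPM), SAMD9 (30.77 CPM), IFI6 (583 CPM) and IFNAR2 (8.086 CPM). Among genes of antigen presentation it was high for B2M (629.9 CPM), BOLA-NC1 (70.28 CPM), BOLA-DRA (66.4 CPM) and CD74 (317.7 CPM). It was also high for LTF (1399 CPM), GP2 (581 CPM), PIGR (407.3 CPM), INSR (9.73 CPM) and PTPRC (8.809 CPM). At levels of a few counts it was high for MEF2C (0.263 CPM), FGL2 and CLEC2B (0.3287 CPM each), HOXA10 (0.06574 CPM) and HOXA11 (0.1315 CPM). The part of endometrial RNA in these values was not tested.

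S56 was high for KRT18 (38433 CPM), KRT19 (13490 CPM), PRDX1 (12000 CPM), IFI30 (387.2 CPM), POU5F1 (24.72 CPM) and MESP1 (7.694 CPM). S54 was high for TKDP4 (19996 CPM), PAG12 (3290 CPM) and STAR (20.9 CPM). S60 was high for PAG8 (929.5 CPM) and LHCGR (0.4885 CPM) and low for BMP2 (45.04 CPM). S59 was high for FOXI3 (218.4 CPM) and S52 for BMX, with 1 count (0.06917 CPM).

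Among maternal libraries, the sum of interferon-stimulated genes was high in corpus luteum S116 (7799 CPM) and PBMC S94 (13030 CPM). PBMC S107 was high for leukocyte markers (9316 CPM) and luteal markers (126.2 CPM). MPEG1 had a log2 fold change of 6.3 in E1 and -5.14 in the main comparison, with no overlap of the groups in either, and the difference was not tested.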

How the results depend on the processing

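No paired analysis was possible because the tissues share no replicate numbers and the cow of a library is not known. With library sizes alone, 3937 genes were higher than in endometrium and 4518 higher than in corpus luteum, 2686 were higher than in all 3 tissues and 8333 lower, and 348 were set apart upward and 1799 downward. The median log2 fold changes of all genes then were -1.64, -1.07 and -0.77. RLE factors gave 4320 higher and 6397 lower than all 3, upper-quartile factors 4197 and 6487, and DESeq2 4364 and 6431. In 3 separate fits, of 14206 genes tested in all, 4651 were higher and 3706 lower. The test beyond 2-fold called 4479 genes higher than in endometrium, 4062 higher than in corpus luteum, 2685 higher than all 3 and 3746 lower. A fold limit of 4 gave 1210 genes set apart upward, and a limit of 16 gave 339 upward and 621 downward.

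Leaving out 1 library at a time gave 550 to 599 genes set apart upward and 1046 to 1404 downward, the highest without S50. At least 540 and 1027 of these were among the 562 and 1059. Without S50, S56 and S59, 558 were set apart upward, of which 538 were among the 562, and 1551 downward. A tally took 1 comparison per named gene and, of the fits that left out 1 library, only the lowest and the highest value. In it 1489 values kept direction and call, 23 lost the call and 3 turned. The 3 were MKI67 against PBMC to -0.18, TRIM25 against endometrium to -0.44 and HOXB4 against endometrium to -0.08, each with library sizes alone. PTPRC against endometrium lost its call with DESeq2 (-0.86). The cause was not tested. Genes with few counts, such as those of the embryonic disc, are limited by depth.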

Other observations

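Hormone receptors differed by tissue compared. Of 12 listed, 3 were lower than in all 3 tissues and none was higher, beside 29.2% and 25.8% of all genes, and INSR alone was set apart. Against endometrium 9 were lower and 2 higher, against corpus luteum 11 lower and 0 higher, and against PBMC 3 lower and 6 higher. ESR2, an estrogen receptor, was at 0.0781 to 0.657 CPM in conceptuses and 2.45 to 67.7 CPM in endometrium (log2 fold change -6.38). PRLR, the prolactin receptor, was at most 1.71 CPM in a conceptus, with a log2 fold change of -8.12 against corpus luteum. ESR1 was at 29.5 CPM in S50 with a median of 0.345 CPM over the conceptuses, against 99.8 to 337 CPM in endometrium, and its part of endometrial RNA was not tested. PGR, the progesterone receptor, ranged from 0.139 to 4.54 CPM, highest in S50, against 14.7 to 33.5 CPM in endometrium.

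ALAS2, the first enzyme of heme synthesis in red cells, ranged from 1.07 to 40.1 CPM in conceptuses, highest in S54, and gave 3 counts over the endometria. The difference from PBMC did not pass the test (log2 fold change -0.45, adjusted p = 0.451 from edgeR). PEG10, an imprinted gene of retrotransposon origin, ranged from 3.16 CPM in S50 to 79.5 CPM in S57 and was at least 441 CPM in every corpus luteum (log2 fold change -5.00). PECAM1, of endothelium, ranged from 9.87 to 50.2 CPM in conceptuses and overlapped with endometrium, where CDH5 did not.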
